A study of Mus musculus with 12 samples.

Results

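Peritoneal macrophages from mice labelled Ythdf1 knockout (KO) were sequenced after 6 h with lipopolysaccharide (LPS) or with phosphate-buffered saline (PBS), and what LPS did to their transcripts was measured here gene by gene. The comparison used the 6 libraries labelled KO out of 12 in the series, 3 with LPS (KO_LPS) and 3 with PBS (KO_PBS), chosen by genotype and treatment alone. The other 6 libraries were the same treatments of wild-type (WT) macrophages and were used to estimate the spread and to show where the KO response differed from the WT response. KO animals carried a whole-body deletion made with CRISPR/Cas9 on the C57BL/6 background, so every cell type of the animal and not only its macrophages was labelled as lacking Ythdf1. Cells were drawn into the peritoneum with starch broth in the series record and with thioglycollate in the study's methods. They were kept overnight in culture and then received 1 µg/mL LPS or PBS. The labels call the replicates independent, but do not tie a library to an animal or a culture, so p-values measure only the spread between these samples.

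LPS is a cell wall component of Gram-negative bacteria that macrophages sense through the receptor Tlr4 and its co-receptors Cd14 and Ly96. The adaptor Myd88 then leads to the transcription factors NF-kB and AP-1 and to inflammatory cytokines, while the adaptor Ticam1 leads through Irf3 to interferon beta and to a later wave of interferon-stimulated genes. Ythdf1 is a reader protein that binds messenger RNA carrying the N6-methyladenosine (m6A) mark and is known for promoting its translation.

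Total counts in the KO libraries ran from 21546274 to 21744004, and 3 counts, the floor used for detection, equalled 0.105 to 0.106 CPM (the count scaled to edgeR's effective library size) in KO_PBS and 0.184 to 0.187 CPM in KO_LPS. Such floors cover counting error only. KO_PBS replicate 3 stood apart from the other two of its group, with higher traces of LPS-induced genes and few muscle transcripts, so calls were also counted without it. That left 5109 genes called more than 2-fold, against 5027 with it. The targeted gene was read first, since it checks the label. Ythdf1 (gene 228994, chr2:180904377-180920936, GRCm38.p6) read 55.4, 58.1 and 58.1 CPM in KO_PBS and 196, 192 and 205 CPM in KO_LPS, a rise of 1.79 ± 0.06 on the log2 scale (standard error, n = 3 against 3, adjusted p = 1.97e-14). Ythdf1 mRNA was therefore not lost in the libraries labelled KO. It stood 0.40 higher on the log2 scale than in WT under PBS (adjusted p = 1.33e-04) and differed by -0.03 under LPS (adjusted p = 0.724). The paper shows genotyping of the knockout line and YTHDF1 immunoblots of mice given transplanted bone marrow, neither tied to these libraries. A gene-level count does not show which exons were read, and protein was not measured in these files, so directions below belong to the libraries as labelled.

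The macrophage label held against its markers. The 10 general macrophage genes summed to 19707 to 19911 CPM in KO_PBS and 20929 to 22681 CPM in KO_LPS. Some defining genes of other cells were at or under the floor in all 6 libraries, namely Pax5 and Ebf1 of B cells, Cd3e, Cd3d and Cd3g of T cells, S100a9, Retnlg, Mpo and Elane of neutrophils, Cpa3, Mcpt4, Tpsb2 and Cma1 of mast cells, and all 5 natural killer genes read. The 6 neutrophil markers read summed to 4.95 to 5.63 CPM in KO_PBS and 8.40 to 16 CPM in KO_LPS, and the 5 fibroblast markers to 32.9 to 46.2 CPM and 57.0 to 69.5 CPM. Other members of the lymphoid and mast cell lists did move, and the 6 T cell markers summed to 1.95 to 2.25 CPM in KO_PBS and 5.03 to 5.57 CPM in KO_LPS, the 5 mast cell markers to 0.175 to 0.456 CPM and 2.82 to 3.56 CPM, and the 6 B cell markers to 1.26 to 1.90 CPM and 0.497 to 0.796 CPM. In bulk RNA, fewer cells of a type and less RNA per cell cannot be told apart. Skeletal muscle markers did not follow treatment and are described with the KO_PBS libraries at the end.

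Of 12064 genes tested, 4682 (38.8%) were called higher with LPS and 4953 (41.1%) lower at an adjusted p of 0.05. More than 2-fold changes were called for 2330 genes upward (19.3%) and 2697 downward (22.4%), and these counts are the background for every gene group below. Rises were fewer than falls among small changes and more frequent among large ones. Between 1 and 2 on the log2 scale, 1079 genes rose and 1611 fell, whereas beyond 8 on that scale 95 rose and 4 fell. The 3 KO_PBS and 3 KO_LPS libraries did not overlap in 9811 of the 12064 genes tested, among them 9438 of the 9635 genes called. At the extremes, 92 genes at or under the floor in every KO_PBS library reached a mean of at least 1 CPM with LPS, and 57 genes made the opposite move.

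The split between rises and falls depended on how the libraries were scaled. Under the trimmed mean of M-values (TMM) scaling used throughout, scaling factors were 1.31 in each KO_PBS library and 0.744 to 0.756 in KO_LPS, and 46.3% of the more than 2-fold calls were rises. Scaling to library totals alone moved the median log2 fold change over all genes tested by -0.80 and left 1371 rises against 5300 falls, 20.6% rises. Upper-quartile scaling moved the median by -0.36 and gave 1810 against 3708, or 32.8%. All 1371 rises under library totals were rises under TMM, and all 2697 falls under TMM were falls under library totals. Changes within 2-fold are therefore given below with their direction under library totals wherever it turned.

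**Figure D1:**
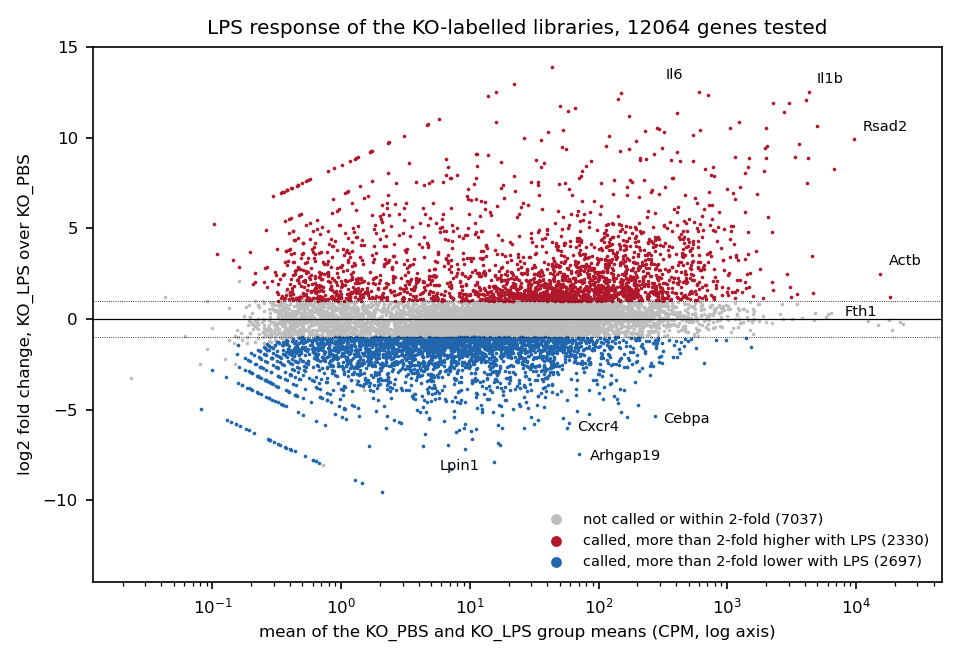
Each point is one of the 12064 genes tested, with the mean of the KO_PBS and KO_LPS group means in CPM on a log axis and the log2 fold change of KO_LPS over KO_PBS on the vertical axis; dotted lines mark 2-fold. The 2330 red rises reach beyond log2 12, whereas the 2697 blue falls lie mostly above log2 -6, and parallel lines of points at low CPM are genes with 0 counts in one group.

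Cytokine genes were among those that rose most. All 11 proinflammatory cytokine genes tested rose more than 2-fold, against 19.3% of all genes, with a median log2 fold change of 8.93 against -0.04 over all genes tested. Il1b, the interleukin made as an inactive precursor and cut by the inflammasome (chr2:129364569-129371164), read 0.490, 0.597 and 3.22 CPM in KO_PBS and 8777, 8682 and 8198 CPM in KO_LPS, a log2 fold change of 12.54 ± 0.43 (adjusted p = 6.71e-10; 13.92 without KO_PBS replicate 3). KO_PBS replicate 3 was the highest of its group, and it still lay far below every KO_LPS library. Il6, the inducer of the acute phase response (chr5:30013114-30019975), read 0.105, 0.0351 and 0.461 CPM and then 1250, 1237 and 1150 CPM, or 12.53 ± 0.25. The other two KO_PBS libraries held 3 and 1 counts of Il6, within the floor, and the fitted size rests on replicate 3. Il12b, the shared subunit of interleukins 12 and 23, went from 0.175, 0.105 and 0.531 CPM to 1501, 1300 and 1475 CPM, or 12.34 ± 0.18 (13.25 without KO_PBS replicate 3). Its partner Il12a had 0, 0 and 0.142 CPM without LPS and 301, 308 and 292 CPM with it. Tnf, the early inflammatory cytokine, was already read at 12.1, 12.9 and 15.9 CPM under PBS and rose by 8.93 ± 0.11 to 6548, 6544 and 6837 CPM. Il1a, an alarmin that is active without cleavage, read 16.4, 16.9 and 19.6 CPM and then 8309, 8416 and 8531 CPM. In none of these genes did a PBS library come near an LPS library.

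Chemokines and growth factors that draw and mature leukocytes rose with them. The list of neutrophil chemokines and colony-stimulating factors moved as a whole, with 7 of 7 genes tested more than 2-fold higher and a median log2 fold change of 10.37. Csf3, the growth factor of neutrophils (chr11:98700183-98703631), was at or under 1 count in each KO_PBS library and read 108, 104 and 89.5 CPM with LPS, at least 945-fold higher. Csf2, a growth factor of myeloid cells, had 0 counts in KO_PBS and rose at least 88.8-fold, to 11, 9.61 and 7.65 CPM. Cxcl1, a ligand of the neutrophil receptor Cxcr2, went from 0.700, 1.09 and 1.06 CPM to 1144, 1084 and 1029 CPM (10.15 ± 0.12). Among CC chemokines, which draw monocytes and T cells, 11 of 12 rose more than 2-fold, and Ccl6 stayed within 2-fold (0.21 ± 0.09 under TMM, negative under upper-quartile and library-total scaling, and not called once any single KO_PBS library was left out). Ccl5 read 1.37, 1.61 and 3.12 CPM under PBS and 5474, 5808 and 5169 CPM under LPS, or 11.40 ± 0.19. Ccl3 rose by 8.30 ± 0.08 to 13141, 13741 and 13206 CPM. Cxcl10, a ligand of Cxcr3 on activated T cells (chr5:92346638-92348889), read 1.09, 1.19 and 3.47 CPM and then 7972, 8977 and 7489 CPM, a log2 fold change of 12.05 ± 0.33 (12.79 without KO_PBS replicate 3). Its relative Cxcl9 rose by 6.30 ± 0.25 to a mean of 55.9 CPM. Interferon beta itself, Ifnb1, was low at this time, with 15, 14 and 15 counts in KO_LPS and 0 in KO_PBS, at least 8.50-fold higher.

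Promoters of 4 induced genes are shown because they hold the 2 motifs that LPS signalling is best known to use, each over 250 bases before and 50 after the RefSeq start, on build GRCm38.p6 and on the strand of the gene. Capitals mark the letters of the kappaB motif (GGGA, any 2 bases, TTCC), bound by NF-kB, or of the interferon-stimulated response element (ISRE; GAAA, any 2 bases, GAAA), bound by interferon regulatory factors, each searched on both strands.
Il6, chr5:30012864-30013163, plus strand: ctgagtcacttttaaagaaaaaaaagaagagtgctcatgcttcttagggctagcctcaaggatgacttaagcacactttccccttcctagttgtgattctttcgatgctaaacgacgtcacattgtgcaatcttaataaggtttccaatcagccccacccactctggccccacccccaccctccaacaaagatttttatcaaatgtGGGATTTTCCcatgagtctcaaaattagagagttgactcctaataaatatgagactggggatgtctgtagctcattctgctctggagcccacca
Cxcl1, chr5:90890995-90891294, plus strand: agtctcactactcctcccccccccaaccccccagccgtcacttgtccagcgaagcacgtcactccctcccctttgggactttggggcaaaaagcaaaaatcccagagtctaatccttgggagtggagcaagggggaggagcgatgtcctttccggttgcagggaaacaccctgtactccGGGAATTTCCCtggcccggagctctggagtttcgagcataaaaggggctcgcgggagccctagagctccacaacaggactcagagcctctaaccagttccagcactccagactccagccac
Cxcl10, chr5:92348840-92349139, minus strand: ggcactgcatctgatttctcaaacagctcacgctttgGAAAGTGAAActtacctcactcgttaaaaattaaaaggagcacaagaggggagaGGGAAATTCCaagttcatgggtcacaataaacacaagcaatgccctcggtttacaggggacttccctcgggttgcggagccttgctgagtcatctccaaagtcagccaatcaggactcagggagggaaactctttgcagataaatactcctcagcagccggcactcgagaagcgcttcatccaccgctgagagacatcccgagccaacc
Ifit1, chr19:34640639-34640938, plus strand: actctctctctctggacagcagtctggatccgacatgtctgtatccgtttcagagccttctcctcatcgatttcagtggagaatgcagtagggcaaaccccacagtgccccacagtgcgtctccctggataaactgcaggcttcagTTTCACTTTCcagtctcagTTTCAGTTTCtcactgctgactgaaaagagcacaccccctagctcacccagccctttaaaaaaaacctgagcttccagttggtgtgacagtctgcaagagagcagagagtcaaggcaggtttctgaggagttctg

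The Il6 window held 1 kappaB match at -44 to -35 from the start, and the Cxcl1 window 2 overlapping ones, 1 on each strand, at -71 to -62 and -70 to -61. The Cxcl10 window held an ISRE match at -213 to -204 and a kappaB match at -159 to -150, and Ifit1 held 2 ISRE matches at -104 to -95 and -85 to -76. A window was found for 9651 of the 12064 genes tested. The kappaB letters stood in 5.65% of the 354 windows of genes that rose more than 16-fold, in 2.54% of the windows of all genes that rose more than 2-fold, in 1.43% for genes that fell more than 2-fold, in 1.8% of the windows of all genes tested, and in 1.47% of all 32851 windows in the table. The ISRE letters stood in 17.8%, 8.83%, 2.21%, 4.06% and 3.44% of the same sets. For the AP-1 motif TGANTCA the shares were 18.4%, 9.11%, 6.36%, 6.46% and 7.81%, and for the cyclic AMP response element TGACGTCA 1.41%, 3.75%, 2.72%, 3.55% and 1.79%. A TATAAA box on the gene's strand was in 13.6%, 8.77%, 4.47%, 5.44% and 8.32%. These shares describe letters in a fixed window and not bound sites.

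**Figure D2:**
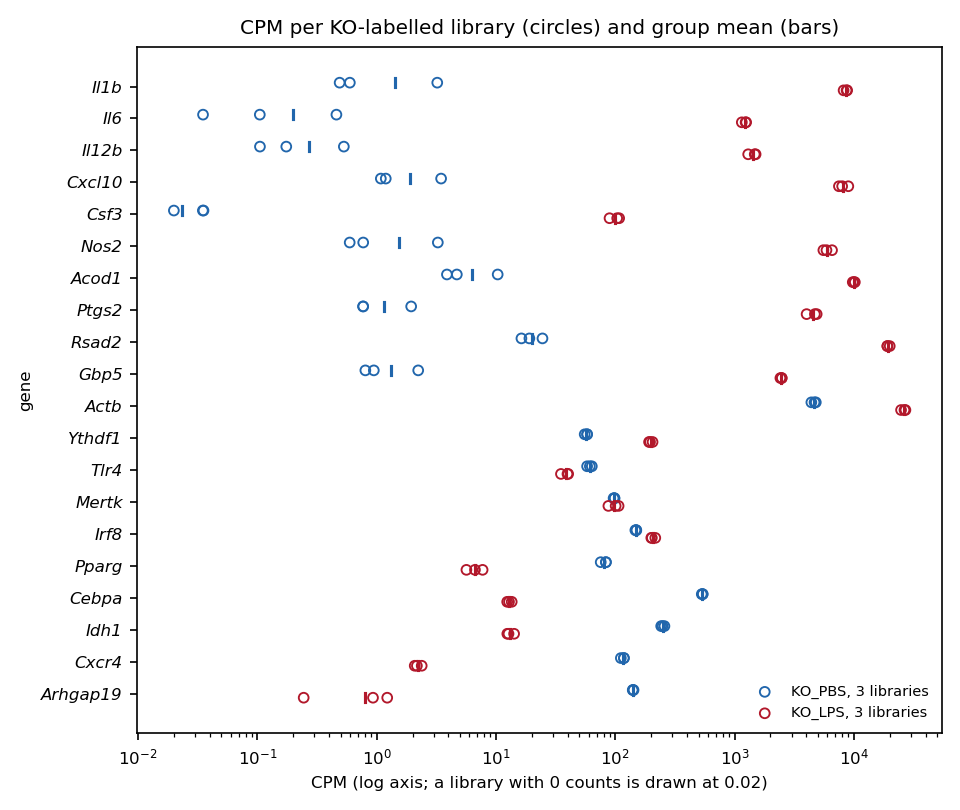
CPM of 20 genes on a log axis in the 3 KO_PBS libraries (blue circles) and the 3 KO_LPS libraries (red circles), with short bars at the group means. Il1b and Il6 separate by log2 fold changes of 12.54 and 12.53, Mertk overlaps between treatments, and Cebpa, Idh1, Cxcr4 and Arhgap19 sit lower with LPS.

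Genes of the NF-kB pathway, whose inhibitors are themselves made on activation and restrain it, rose without exception, with 16 of 16 more than 2-fold higher and a median of 4.02 (14 of 16 under library totals). Nfkbiz, a nuclear co-factor needed for secondary genes such as Il6, rose from a mean of 3.36 to 745 CPM (7.79 ± 0.09). Traf1 rose by 7.68 ± 0.14 and Tnip3 by 7.0 ± 0.11, and the subunit gene Nfkb2 by 5.51 ± 0.11. The gene of the transactivating subunit, Rela, rose less, by 2.07 ± 0.09.

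The receptor side was mixed. Of 16 genes for the LPS receptor and its adaptors, 7 rose more than 2-fold, 3 were called lower within 2-fold and the median was 0.63. Under library totals 6 rose and 3 fell more than 2-fold and the median was -0.17. Tlr4 itself read 63.6, 58.1 and 61.3 CPM in KO_PBS and 39.8, 35.1 and 40.3 CPM in KO_LPS, and fell by 0.67 ± 0.07 on the log2 scale without overlap. The co-receptor Cd14 rose by 3.56 ± 0.07, Myd88 by 3.56 ± 0.06, and Irak3, a kinase-dead brake on the pathway, by 3.50 ± 0.07. Map3k8, the kinase upstream of ERK, rose by 2.75 ± 0.08. Of the 9 other Toll-like receptor genes, 6 rose and 2 fell more than 2-fold. Tlr3, which senses double-stranded RNA, rose by 5.25 ± 0.11, and Tlr2, which senses bacterial lipopeptides, by 5.24 ± 0.08. Tlr13, a sensor of bacterial ribosomal RNA, fell by 2.08 ± 0.07, from 506, 464 and 471 CPM to 117, 102 and 121 CPM. Tlr5, the flagellin receptor, had 0 counts in KO_LPS and was at least 4.34-fold lower.

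Immediate-early and AP-1 genes were divided by member. Of the 15 tested, 10 rose and 3 fell more than 2-fold (7 and 4 under library totals). Batf2 rose by 5.93 ± 0.09, Batf by 4.26 ± 0.11, Ier3 by 4.11 ± 0.10 and Fosl1 by 3.71 ± 0.23. Fos, Jun and Egr2, genes known to peak within the first hour of stimulation, fell by 1.89 ± 0.07, 1.91 ± 0.06 and 2.60 ± 0.11. Among 13 genes that shorten mRNA half-life or dephosphorylate MAP kinases, 9 rose and 2 fell more than 2-fold (6 and 2 under library totals). Zc3h12a, an endonuclease that cuts cytokine mRNA, rose by 5.14 ± 0.10, and the phosphatases Dusp16 and Dusp2 by 4.75 ± 0.10 and 4.14 ± 0.08. Zfp36l2, a relative of tristetraprolin, fell by 2.57 ± 0.07, from a mean of 428 to 71.8 CPM.

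Feedback cytokines rose as well, with 9 of 10 anti-inflammatory genes more than 2-fold higher and a median of 4.0 (8 of 10 under library totals). Il10, the main deactivating cytokine of macrophages, went from 0.070, 0.140 and 0.283 CPM to 122, 113 and 101 CPM (9.37 ± 0.20, and 9.98 without KO_PBS replicate 3). Il1rn, the antagonist of the interleukin 1 receptor, rose by 7.47 ± 0.10 to 8316, 8187 and 8116 CPM. Socs3 and Socs1, inhibitors of JAK signalling, rose by 7.18 ± 0.13 and 6.53 ± 0.10.

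Interferon-stimulated genes rose as a group. All 27 antiviral genes tested rose more than 2-fold under TMM and under library totals, with a median of 5.92. Rsad2, which makes an antiviral nucleotide (chr12:26442743-26456452), read 19.1, 16.4 and 24.6 CPM in KO_PBS and 19106, 19053 and 19969 CPM in KO_LPS, a log2 fold change of 9.92 ± 0.14. Its neighbour in the genome Cmpk2 rose by 9.66 ± 0.15. Ifit1, whose promoter is printed above, read 5.43, 3.86 and 7.33 CPM and then 3831, 4086 and 3740 CPM (9.45 ± 0.18), and Ifit2 rose by 9.53 ± 0.15. Irf7, the factor that amplifies interferon production, rose by 5.92 ± 0.24. All 15 interferon-inducible GTPases, which attack the vacuoles of intracellular microbes, rose more than 2-fold, with a median of 8.69. Gbp5 read 0.805, 0.948 and 2.23 CPM and then 2485, 2421 and 2476 CPM (10.85 ± 0.23, and 11.44 without KO_PBS replicate 3). Iigp1 and Tgtp1 were at or under the floor in KO_PBS and rose at least 988-fold and at least 259-fold. Tgtp1 has the near-identical copy Tgtp2, so the division of reads between that pair is uncertain.

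Antigen presentation by class I and class II moved differently. Of 17 class I and peptide-loading genes, 16 rose more than 2-fold (13 under library totals), with a median of 3.33. Nlrc5, the transactivator of class I genes, rose by 5.17 ± 0.14 and the peptide transporter Tap1 by 4.85 ± 0.08. H2-Q7 and H2-Q4, non-classical class I genes with close copies, rose by 4.38 ± 0.28 and 3.79 ± 0.08. Of 8 class II genes tested, 2 rose and 1 fell more than 2-fold, and the median was 0.22. H2-Ab1 and the invariant chain Cd74 rose by 1.13 ± 0.07 and 1.10 ± 0.08. The transactivator Ciita read 2.03, 2.63 and 3.44 CPM and then 1.17, 1.35 and 1.49 CPM, and fell by 1.01 ± 0.25, but by 0.81 without KO_PBS replicate 3, where no class II gene fell more than 2-fold. H2-Eb1 rose by 0.58 ± 0.07 under TMM and was lower by library totals, where no class II gene rose more than 2-fold and 3 fell. Of 12 co-stimulatory and checkpoint genes, 11 rose and 1 fell more than 2-fold. Tnfsf15 rose by 10.30 ± 0.13, Cd69 by 8.79 ± 0.14, Cd40 by 7.97 ± 0.11 and Tnfsf9 by 6.06 ± 0.10, whereas the inhibitory receptor gene Havcr2 fell by 3.37 ± 0.11.

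Nos2, the inducible nitric oxide synthase (chr11:78920787-78960226), read 0.595, 0.772 and 3.26 CPM in KO_PBS and 5890, 5548 and 6557 CPM in KO_LPS, or 11.92 ± 0.42 (13.08 without KO_PBS replicate 3). Acod1, which makes itaconate from an intermediate of the tricarboxylic acid cycle (chr14:103047012-103056573), went from 3.89, 4.70 and 10.3 CPM to 9783, 10019 and 10184 CPM (10.63 ± 0.34). The arginine transporter Slc7a2 rose by 7.30 ± 0.10 and Gch1, which starts the synthesis of a cofactor of nitric oxide synthase, by 4.49 ± 0.08. In all, 6 of the 10 nitric oxide, arginine and itaconate genes tested rose more than 2-fold, and none fell by that much under TMM.

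Prostaglandin and leukotriene genes were split between 3 that rose and 8 that fell more than 2-fold of 14 (3 and 11 under library totals), with a median of -1.08. The 3 that rose are steps to prostaglandin E2. Ptgs2, the inducible cyclooxygenase, read 0.770, 0.772 and 1.95 CPM and then 4710, 4015 and 4877 CPM (11.92 ± 0.21), Ptges rose by 6.81 ± 0.11, and the phospholipase Pla2g4a by 2.92 ± 0.07. Hpgds, the synthase of prostaglandin D2, fell by 2.92 ± 0.09, from 92.1, 78.4 and 82.2 CPM to 11.5, 11.3 and 10.6 CPM.

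In glycolysis, 6 of 17 genes rose and 2 fell more than 2-fold (3 and 8 under library totals). Pfkfb3, which makes the main activator of phosphofructokinase, rose by 3.98 ± 0.08, and the phosphofructokinase isoforms moved apart, Pfkp up by 2.22 ± 0.06 and Pfkl down by 3.11 ± 0.07. The hexokinase gene Hk2 rose by 2.19 ± 0.09. In the list of 20 tricarboxylic acid cycle genes, which also holds cytosolic counterparts of its enzymes, none rose and 4 fell more than 2-fold (11 under library totals). Idh1, the cytosolic isocitrate dehydrogenase (chr1:65158616-65186479), read 249, 258 and 243 CPM and then 12.5, 14.2 and 12.7 CPM, and fell by 4.25 ± 0.07. Idh2, its mitochondrial counterpart, fell by 1.36 ± 0.08, Suclg2 by 1.47 ± 0.11 and Aco1, also the iron regulatory protein, by 1.44 ± 0.07. No oxidative phosphorylation gene of 38 passed 2-fold in either direction under TMM. Small changes there went both ways, with 16 called higher and 11 lower, and the balance turned under library totals, where none was called higher and 37 lower, 10 of them by more than 2-fold. Ndufs7 fell by 0.97 ± 0.08, while Atp5b and Uqcrfs1 rose by 0.65 ± 0.05 and 0.63 ± 0.08 under TMM. Under library totals Atp5b was called lower, and Uqcrfs1 was at -0.17 and not called (adjusted p = 0.0732).

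Cholesterol genes varied by role. Ch25h, which makes the antiviral oxysterol 25-hydroxycholesterol, rose by 9.47 ± 0.20, from a mean of 0.141 to 104 CPM. The efflux pump Abca1 rose by 2.25 ± 0.14, while Abcg1, the other efflux pump, fell by 0.66 ± 0.07. Dhcr7, the last step of synthesis, fell by 3.61 ± 0.09. In all, 5 of 23 rose and 1 fell more than 2-fold (3 and 7 under library totals). Of 25 lysosomal enzyme genes, 2 rose and 2 fell more than 2-fold under TMM, where 13 were called lower and 5 higher. Under library totals 1 rose and 12 fell more than 2-fold, and 23 were called lower and 2 higher. Ctsc, which activates granule proteases, rose by 2.13 ± 0.07 and Npc2 by 1.25 ± 0.07. Lipa, the lysosomal acid lipase, fell by 1.52 ± 0.06 and Npc1, the sterol exporter, by 1.48 ± 0.12.

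Of 23 phagocytic and scavenger receptor genes, 8 rose and 2 fell more than 2-fold (8 and 9 under library totals). Axl, a receptor for apoptotic cells, rose by 4.19 ± 0.08, from a mean of 47.8 to 874 CPM. The high-affinity antibody receptor Fcgr1 rose by 3.15 ± 0.08 and Marco by 3.13 ± 0.19. Timd4, a marker of resident peritoneal macrophages, rose by 3.70 ± 0.43 from near the floor to a mean of 1.44 CPM. Mertk, the relative of Axl, read 98.4, 96.8 and 98.6 CPM under PBS and 101, 87.6 and 107 CPM under LPS, overlapped, and was not called under TMM (0.01 ± 0.07, adjusted p = 0.938), although it was called lower under upper-quartile and library-total scaling.

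The list of macrophage identity genes, which holds transcription factors and other macrophage markers, changed by member, with 6 of its 20 genes higher and 5 lower by more than 2-fold (3 and 8 under library totals). Cebpa (chr7:35119293-35121928) read 531, 539 and 541 CPM in KO_PBS and 13.6, 12.4 and 12.9 CPM in KO_LPS, and fell by 5.37 ± 0.08 (adjusted p = 1.90e-18). Its relatives Cebpd and Cebpb rose by 3.60 ± 0.06 and 3.53 ± 0.09. Pparg, a nuclear receptor of lipid metabolism, fell by 3.59 ± 0.09, from 83.4, 83.6 and 75.5 CPM to 7.73, 6.67 and 5.66 CPM. Irf8, a lineage factor of myeloid cells (chr8:120736358-120756694), read 147, 150 and 150 CPM and then 200, 203 and 217 CPM, a rise of 0.47 ± 0.06 under TMM that turned to a fall under library totals.

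Receptors through which macrophages migrate or sense nucleotides changed by more than 2-fold for most of the 16 genes tested, 11 higher and 3 lower (8 and 4 under library totals). Cxcr4, the receptor of Cxcl12 (chr1:128588199-128592299), fell by 5.70 ± 0.09, from 118, 118 and 111 CPM to 2.09, 2.39 and 2.18 CPM. Ccr7, which guides cells to lymph nodes, had at most 2 counts in a KO_PBS library and rose at least 95.4-fold to 10.6, 10.1 and 9.70 CPM. The adenosine receptors Adora2b and Adora2a rose by 5.80 ± 0.12 and 5.78 ± 0.08.

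Of 26 cell death genes, 16 rose and 3 fell more than 2-fold (15 and 6 under library totals). Nlrp3, the sensor of the canonical inflammasome, rose by 5.90 ± 0.11, Casp4, which binds cytosolic LPS, by 5.66 ± 0.14, and the survival gene Bcl2a1d, one of several close copies, by 5.30 ± 0.10. The pro-apoptotic gene Bmf read 9.03, 8.46 and 8.25 CPM in KO_PBS and at most 2 counts in a KO_LPS library, at least 46.0-fold lower. Pycard, the inflammasome adaptor, fell by 0.89 ± 0.08. Tnfrsf1b, the second receptor of Tnf, rose by 3.47 ± 0.09 to 8324, 7844 and 8777 CPM.

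Of 15 oxidative stress genes, 7 rose and 2 fell more than 2-fold (3 and 5 under library totals). The cystine transporter Slc7a11 rose by 5.06 ± 0.09 and the mitochondrial superoxide dismutase Sod2 by 4.99 ± 0.09, ahead of Gsr at 1.84 ± 0.06 and Keap1 at 1.60 ± 0.08. Among 11 iron genes, 5 rose and 3 fell more than 2-fold (4 and 4 under library totals). Lcn2, which binds bacterial siderophores, rose by 10.55 ± 0.27, from 0.175, 0.140 and 0.815 CPM to 603, 610 and 498 CPM (11.77 without KO_PBS replicate 3), and the importer Slc39a14 and haptoglobin (Hp) by 3.39 ± 0.10 and 2.92 ± 0.14. The iron exporter Slc40a1 fell by 4.26 ± 0.28.

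Of 30 cell cycle genes, 5 rose and 10 fell more than 2-fold (3 and 17 under library totals). Ccnd2 rose by 9.11 ± 0.17 and Ccne1 by 3.05 ± 0.14, while E2f2 fell by 5.14 ± 0.20. Mki67, a gene of cycling cells, read 6.55, 4.84 and 6.62 CPM and then 47.6, 35.4 and 48.1 CPM (2.86 ± 0.20). Plk1 was at 0.16 ± 0.20 and Ccna2 at -0.14 ± 0.16, neither of them called under TMM and both called lower under library totals.

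All but 1 of 34 ribosomal protein genes stayed within 2-fold. Of these 34, 14 were called higher and 2 lower under TMM, and 1 higher and 30 lower under library totals. Rps9 rose by 0.90 ± 0.07 and was not called under library totals, and Rpl27 and Rps24 by 0.48 ± 0.10 and 0.47 ± 0.09 under TMM and were lower under library totals. Among 19 m6A genes, 5 rose more than 2-fold and none fell, 4 of 19 without KO_PBS replicate 3, and under library totals 1 rose and 2 fell. At any size 13 were called higher and 2 lower under TMM, and 4 and 12 under library totals. Ythdf1 was one of the 5. Igf2bp2 rose by 2.04 ± 0.07, Igf2bp3 by 1.23 ± 0.22 (0.43 and not called under library totals, adjusted p = 0.0901) and the nuclear reader Ythdc1 by 1.19 ± 0.07.

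No gene of 20 in the unfolded protein and integrated stress response rose more than 2-fold, and 8 fell (13 under library totals), with a median of -0.61. Eif2ak3, the PERK kinase, read 29.4, 31.1 and 28.9 CPM and then 2.45, 2.33 and 3.54 CPM, and fell by 3.42 ± 0.11. Trib3 fell by 1.91 ± 0.21, Dnajb9 by 1.58 ± 0.08 and Sdf2l1 by 1.48 ± 0.07. Among 14 matrix protease and inhibitor genes, 8 rose and 3 fell more than 2-fold (7 and 4 under library totals). Serpinb2 rose by 6.52 ± 0.13, Mmp13 by 4.99 ± 0.09 and Mmp14 by 4.83 ± 0.10. Of 12 complement genes tested, 4 rose and 1 fell more than 2-fold (4 and 3 under library totals). Cfb, of the alternative pathway, rose by 7.0 ± 0.16, C3 by 3.54 ± 0.15 and C1ra by 3.17 ± 0.09, and the receptor gene C5ar2 fell by 2.54 ± 0.15. Genes used to normalise other assays moved too, with 3 of 12 more than 2-fold higher and none lower under TMM, and 1 higher and 4 lower under library totals. Actb (chr5:142903115-142907976) read 4401, 4678 and 4795 CPM and then 24841, 26529 and 27026 CPM, a rise of 2.50 ± 0.08, and Ywhaz rose by 1.71 ± 0.05, whereas Polr2a fell by 0.96 ± 0.17.

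**Figure D3:**
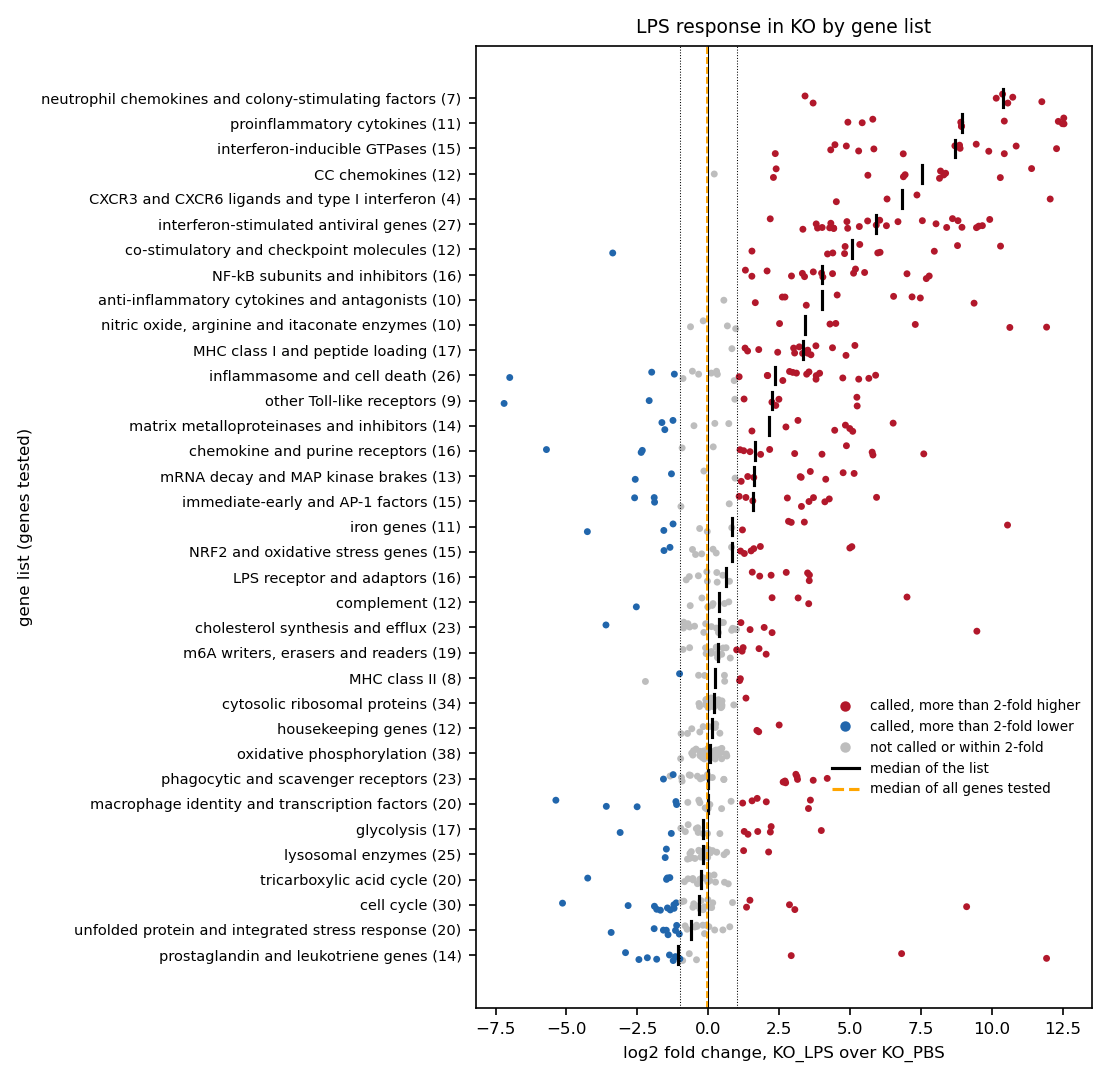
Log2 fold change of KO_LPS over KO_PBS for each tested gene of 35 lists, sorted by the list's median (black bar), with the median of all genes tested dashed in orange at -0.04; dotted lines mark 2-fold. Medians run from 10.37 for neutrophil chemokines and colony-stimulating factors to -1.08 for prostaglandin and leukotriene genes, and all 38 oxidative phosphorylation genes lie within 2-fold under TMM.

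Across the 35 lists, 586 of 598 genes were tested. Of these, 262 rose and 66 fell more than 2-fold, 179 were called within 2-fold and 79 were not called. The lists hold many genes known to respond to LPS, and the counts describe them without a test over the list.

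Ranked over all genes and not by list, the 15 steepest fitted rises among genes above 10 CPM were Serpina3f, Il4i1, Il1b, Il6, Slamf1, Il12a, Il12b, Tgtp1, Hdc, Cxcl10, Nos2, Ptgs2, Csf3, Shisa3 and Ptx3. The order is that of the fit, and the places of genes at or under the floor in KO_PBS depend on its prior count, so only bounds are given for them. Serpina3f, a serine protease inhibitor of a family with close copies, had 0 counts in KO_PBS and 83.3, 86.6 and 88.4 CPM in KO_LPS, at least 810-fold higher. Il4i1, a secreted amino acid oxidase, also had 0 counts and rose at least 414-fold, and the receptor gene Slamf1 at least 302-fold. Hdc, the enzyme that makes histamine, reached 287, 287 and 281 CPM from at most 3 counts, at least 2681-fold higher. Shisa3 rose at least 1239-fold and Ptx3, a soluble pattern recognition protein, at least 1078-fold.

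The 15 steepest fitted falls included Engase, Lpin1, Arhgap19, Nat8l, Tcp11l2, Zfp395, Lpar5, Fam78a, Fam214a, Rasgrp3, Galnt9, Ypel3, Tmem273 and Cd28. Engase, which removes N-glycans, read 12.6, 14.4 and 15.3 CPM and then 0, 2 and 0 counts, at least 75.6-fold lower. Lpin1, a phosphatidate phosphatase of lipid synthesis, read 30.9, 32.2 and 28.5 CPM and fell at least 164-fold, to at most 3 counts. Arhgap19, a GTPase-activating protein (chr19:41766588-41802084), read 142, 141 and 140 CPM in KO_PBS and 1.23, 0.245 and 0.933 CPM in KO_LPS, and fell by 7.45 ± 0.20 (adjusted p = 1.48e-14). Lpar5, a receptor for lysophosphatidic acid, fell by 6.82 ± 0.16, and Cd28, known as a co-stimulatory receptor of T cells, from 54.4, 51.2 and 50.8 CPM to 1.17, 0.796 and 0.435 CPM. Each of the 15 read at least 12.6 CPM in every KO_PBS library and at most 1.23 CPM in every KO_LPS library.

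Ranked by the difference of the group means in TMM-scaled CPM rather than by fold, the 10 called genes that gained most were Actb, Rsad2, Fth1, Ccl3, Acod1, Il1b, Il1a, Il1rn, Cxcl10 and Tnfrsf1b. Fth1, the ferritin heavy chain, went from 10716, 11701 and 10982 CPM to 24940, 26539 and 25490 CPM (1.20 ± 0.06). By the same measure the 10 called genes that lost most were Ctsd, Psap, Ftl1, Gpnmb, Lipa, Lrp1, Cd93, Fabp5, Sirpa and Ahnak, among them lysosomal and scavenger genes that are abundant in macrophages. Ctsd, cathepsin D, read 22362, 23266 and 22776 CPM and then 14788, 15383 and 15009 CPM, and fell by 0.60 ± 0.05. Cd93, a receptor linked to the uptake of dying cells, fell by 2.42 ± 0.08, from 1128, 1084 and 1139 CPM to 195, 204 and 229 CPM. The ferritin light chain gene Ftl1 fell by 0.30 ± 0.06 while Fth1 rose.

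The response of KO was then set against that of WT by testing the difference of the log2 fold changes in the same fit. Of 12064 genes, 1180 (9.78%) had a more positive response in KO and 996 (8.26%) a more negative one. That balance turned with the scaling, to 1072 against 1085 under RLE (the median-ratio scaling of DESeq2), 932 against 1229 under upper-quartile scaling and 627 against 1945 under library totals. Leaving out single libraries moved the positive count between 738 and 1552. Of these 2176 genes, 1351 lay among the 5027 changed more than 2-fold in KO. Under TMM 58 genes were called in opposite directions in KO and WT with the difference called. Among the 586 list genes tested, 162 differences were positive and 69 negative.

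Chemokine genes were among those with large positive differences. In the list of neutrophil chemokines and colony-stimulating factors 4 of 7 were called more positive in KO, against 9.78% of all genes, in CC chemokines 9 of 12 (7 under library totals), and 1 CC chemokine, Ccl8, was more negative. Without KO_PBS replicate 3, 7 CC chemokines were more positive and none more negative. Cxcl1 rose by 10.15 in KO and 6.49 in WT, a difference of 3.66 ± 0.21 (adjusted p = 2.88e-08). Cxcl3 differed by 3.0 ± 0.50, Ccl5 by 2.50 ± 0.22 and Cxcl2 by 2.20 ± 0.39. The difference of Csf3, 5.26 ± 0.66, starts from at most 1 count in any KO_PBS library, so its size depends on the prior count of the fit. Among cytokines, Il1a differed by 2.34 ± 0.10 and Tnf by 1.35 ± 0.12, whereas the difference for Il6 was 0.70 ± 0.96 (adjusted p = 0.690), for Il12b -0.01 ± 0.20 (adjusted p = 0.978) and for Il1b 0.90 ± 0.75 (adjusted p = 0.477), none of them called. Without KO_PBS replicate 3 the difference of Il1b was 2.27 and was called (adjusted p = 1.60e-05). The KO response was then 13.96 for Il6 and 13.25 for Il12b, against WT responses of 11.83 and 12.35 in the main fit. For Il6 the remaining KO_PBS libraries lie within the floor, so that size depends on the prior count.

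Antiviral genes responded more in KO than in WT, with 21 of 27 called more positive, against 9.78% of all genes, none more negative, 24 of 27 more positive without KO_PBS replicate 3 and 18 under library totals. Rsad2 differed by 0.79 ± 0.14 and Ifit1 by 1.03 ± 0.21, while Cxcl10, at 0.05 ± 0.48, and Nos2, at -0.96 ± 0.70, were not called. Without KO_PBS replicate 3 the KO response was 12.79 for Cxcl10 and 13.08 for Nos2, against WT responses of 12.01 and 12.89 in the main fit. Mki67 rose by 2.86 in KO and by 0.51 in WT, a difference of 2.35 ± 0.29. Serpinb2 differed by 2.31 ± 0.19, Adora2b by 2.23 ± 0.19 and Ccr7 by 2.19 ± 0.60. The call for Ccr7 was lost without KO_PBS replicate 1 (1.63, adjusted p = 0.0980) and without WT_PBS replicate 1 (1.98, adjusted p = 0.0682).

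Among the negative differences, Irf8 rose by 0.47 in KO and 2.21 in WT, a difference of -1.74 ± 0.08 (adjusted p = 1.38e-09). Mertk rose by 1.29 in WT and stayed at 0.01 in KO (-1.29 ± 0.09). Under TMM Abcg1 went up by 0.40 in WT and down in KO (-1.06 ± 0.10), and a WT change of that size can turn with the scaling. Pfkl differed by -0.97 ± 0.09, Hpgds by -0.75 ± 0.13, Sdf2l1 by -0.75 ± 0.09, Dhcr7 by -0.70 ± 0.12 and Pycard by -0.67 ± 0.11. Bmf (-2.35 ± 0.73) and Ccl8 (-1.38 ± 0.41) were near the threshold, and both calls were lost when single libraries were left out. Lysosomal enzymes were called more negative in 10 of 25 and more positive in 1 (17 and 0 under library totals), and glycolytic genes in 8 and 2 of 17 (9 and 1), against 8.26% and 9.78% of all genes. Genes named for their steep response in KO, which enters the difference, also differed, Engase by -3.70 ± 0.77 (adjusted p = 0.00350), Fam78a by -2.05 ± 0.45, Ypel3 by -1.59 ± 0.30 and Cd28 by -1.27 ± 0.30, and Hdc in the other direction by 2.40 ± 0.55. Lpin1, at -1.69 ± 0.52, lost its call without WT_LPS replicate 1, KO_LPS replicate 1 or KO_LPS replicate 2 (adjusted p of 0.0826 to 0.147), and Zfp395, at -1.39 ± 0.40, without WT_LPS replicate 3, KO_LPS replicate 1 or KO_LPS replicate 2 (adjusted p of 0.0737 to 0.125). The difference of Il4i1, 5.03 ± 1.45 (adjusted p = 0.0308), lost its call when any one KO_PBS library was left out (adjusted p of 0.0605 to 0.0684). A replicate block in the fit also lost it (adjusted p = 0.0539). Engase and Lpin1 were at or under the floor in KO_LPS and Hdc and Il4i1 in KO_PBS, so the sizes given for these 4 genes depend on the prior count. The targeted gene differed by -0.42 ± 0.08, with a rise of 2.21 in WT.

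**Figure D4:**
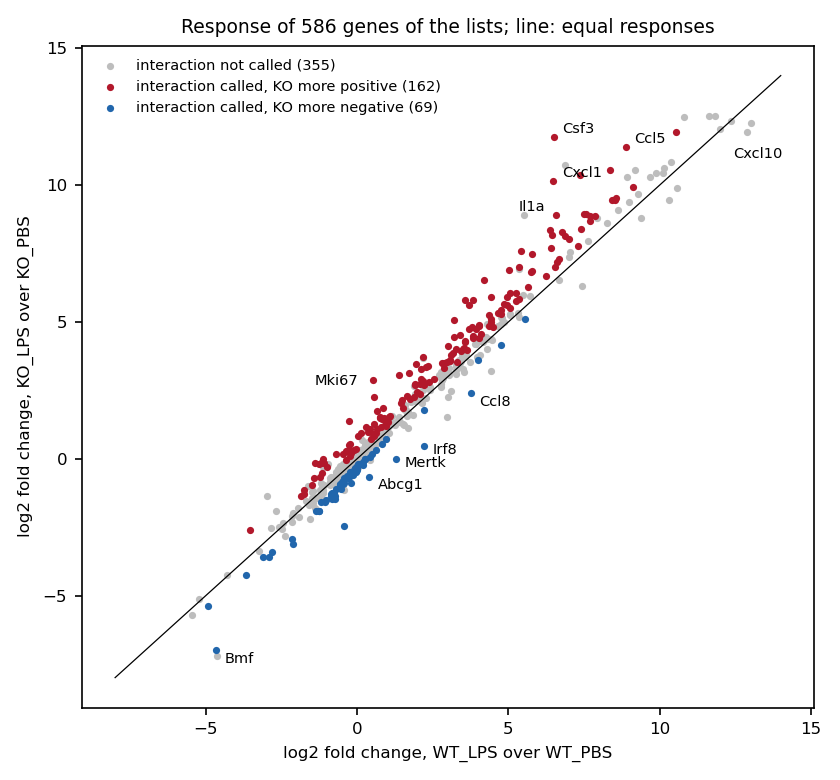
Log2 fold change with LPS in WT (horizontal axis) and in KO (vertical axis) for the 586 list genes tested, with a line of equal responses; red and blue points are the 162 positive and 69 negative differences called. Csf3, Cxcl1 and Ccl5 lie above the line and Irf8 and Mertk below it, while Cxcl10 lies on it.

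The 3 KO_PBS libraries were not alike in the genes that LPS induces most. Over the 114 genes called with a log2 fold change above 6 and a mean of at least 50 CPM in KO_LPS, KO_PBS replicate 3 was the highest of its group in 82, replicate 1 in 13 and replicate 2 in 18. Its excess over the mean of the other two had a median of 0.0587% of the level in KO_LPS, and it exceeded that mean more than 2-fold, with 0.1 CPM added to both, in 16 genes, against 0 for each of the others. Among induced genes with at least 30 counts in that library, Il1b, at 3.22 CPM against 0.490 and 0.597, and Nos2, at 3.26 CPM against 0.595 and 0.772, had the highest ratios to the other two, followed by Ifi206, Cxcl10, Gbp5, Ptgs2, Cxcl2, Ly6a, Acod1 and Mxra7. Ifi206, a DNA sensor gene, read 0.980, 0.842 and 3.12 CPM against 733, 700 and 759 CPM with LPS. For Ly6a, with 0.490, 0.386 and 1.06 CPM against 3.99, 5.14 and 3.86 CPM, and for Mxra7 the same library was higher although LPS induced these genes far less. Without this library the log2 fold change of Ifi206 was 9.63 rather than 8.79, and those of Il1b, Nos2 and Cxcl10 rose as given above. Leaving it out changed 5027 more than 2-fold calls to 5109, of which 4922 were shared.

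The same library lacked skeletal muscle transcripts that the other two held. Muscle markers summed to 15.2, 19.6 and 0.319 CPM in KO_PBS and 0.614, 0.428 and 0.684 CPM in KO_LPS. Acta1, skeletal actin, had 202, 272 and 1 counts in KO_PBS and 1, 1 and 3 in KO_LPS, and Myh4, a fast myosin, 93, 126 and 0 against 0 in each KO_LPS library. Of the 5 muscle markers, 4 were called more than 2-fold lower with LPS, although their groups overlapped, so these calls rest on replicates 1 and 2, and all 5 were called without replicate 3. The call for Myh4 was lost under a replicate block (adjusted p = 0.103), with no filter on low counts (adjusted p = 0.0637) and when most of the single libraries were left out, and that for Acta1 without KO_LPS replicate 2 (adjusted p = 0.0516). Among 10684 genes with at least 30 counts in a KO_PBS library, 21 were more than 3-fold below the mean of the other two libraries in replicate 3, muscle genes such as Ckm, Tnnt3, Ttn and Neb among them, against 8 and 7 in replicates 1 and 2. Whether the 2 features of this library are related was not tested.

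**Figure D5:**
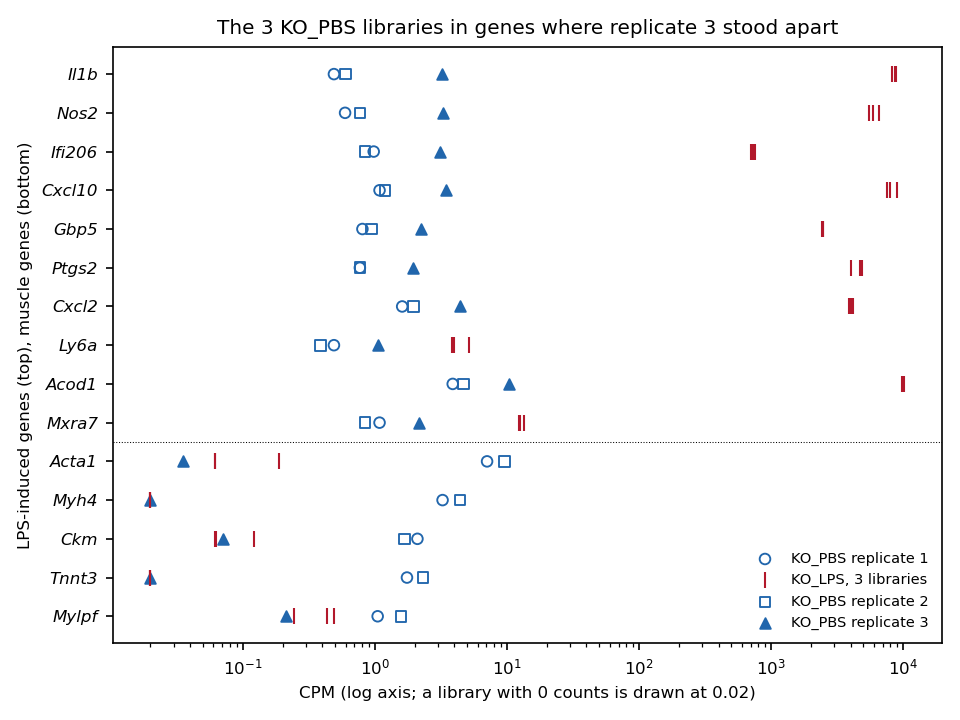
CPM on a log axis of 10 LPS-induced genes and, under the dotted line, 5 muscle genes in KO_PBS replicate 1 (open circles), replicate 2 (open squares) and replicate 3 (filled triangles), with the 3 KO_LPS libraries as red ticks; 0 counts are drawn at 0.02. Replicate 3 lies to the right of the others in every induced gene shown because those genes were chosen for it, and to the left in the muscle genes.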

How the data were processed

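RNA from peritoneal macrophages of WT and KO mice, with LPS or PBS and 3 replicates each, was sequenced single-end on a BGISEQ-500, and the 6 libraries labelled KO are reported. The authors deposited 1 table of expected counts per library, which are estimated and not scaled, with decimals in 25.7% to 26.9% of values in the KO libraries. The submitters' processing notes name Bowtie2, RSEM 1.3.1 and build GRCm38.p6, whereas the paper's methods name STAR and HTSeq. Estimated counts share reads among similar genes, so close copies are uncertain. Strand was not given in the sources used here.

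Counts were rounded to whole numbers and tested with edgeR 4.0.16 in R 4.3.3 by its robust quasi-likelihood test, with TMM scaling, the default filter on low counts (12064 of 16920 genes kept) and 1 mean per group over all 12 libraries. Benjamini-Hochberg adjustment ran over every gene in the fit, and a gene was called at an adjusted p under 0.05. Errors are standard errors of the log2 fold change, back-calculated as its absolute size over the square root of the test's F statistic. For genes with few counts in a group they can understate the error. Il12b, at 12.34 ± 0.18, moved to 13.25 without KO_PBS replicate 3. The common biological coefficient of variation was 6.99%. The fit was first run on simulated counts with 200 genes changed 2-fold, up and down equally. Far more genes changed in these data (9635 called), so that run does not show how the fit or its scaling works on them. Of the 16920 gene numbers, 16803 matched the RefSeq table of GRCm38.p6. No 2 KO replicates of a group agreed within sampling noise.

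Gene lists and the genes compared were chosen with earlier results of these data known. Genes were named by 5 rules: the 15 steepest rises and falls without overlap and with at least 10 CPM in the higher group, the 10 called genes with the largest gain and loss in mean CPM, up to 4 members of each list with the largest change, the 10 most positive and most negative list genes for the difference from WT among those called with at least 5 CPM in a group, and the 10 genes in which KO_PBS replicate 3 stood highest, with at least 30 counts there. Other list members named, among them Tlr4, Tnf, Fos, Jun and Ccl6, complete a list's account. Some genes that the rules name are not reported here. Alternatives were RLE, upper-quartile and library-total scaling, no filter and a stricter one, DESeq2 1.42.0, the KO libraries alone, a replicate block, and leaving out each library in turn.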

Additional observations from a re-analysis of the deposited data

Results flagged for a closer look

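Groups of 3 libraries were too small for a test of single outlying samples. Differences between the KO and the WT response were tested as an interaction in the edgeR fit, and 2176 genes passed at an adjusted p under 0.05. Among them, the response was more positive in KO by these amounts on the log2 scale: 5.26 for Csf3, 5.03 for Il4i1, 3.66 for Cxcl1, 3.0 for Cxcl3, 2.50 for Ccl5, 2.40 for Hdc, 2.35 for Mki67, 2.34 for Il1a, 2.31 for Serpinb2, 2.23 for Adora2b, 2.20 for Cxcl2, 2.19 for Ccr7, 1.87 for Slc7a11, 1.69 for Il1rn, 1.69 for Abca1, 1.66 for Ccne1, 1.65 for Cfb, 1.52 for Ccl3, 1.40 for Ptgs2, 1.35 for Tnf, 1.03 for Ifit1 and 0.79 for Rsad2. The response was more negative in KO by -3.70 for Engase, -2.35 for Bmf, -2.05 for Fam78a, -1.74 for Irf8, -1.69 for Lpin1, -1.59 for Ypel3, -1.39 for Zfp395, -1.38 for Ccl8, -1.29 for Mertk, -1.27 for Cd28, -1.06 for Abcg1, -0.97 for Pfkl, -0.75 for Hpgds, -0.75 for Sdf2l1, -0.70 for Dhcr7, -0.67 for Pycard and -0.42 for Ythdf1. Csf3, Ccr7, Il4i1 and Hdc were at or under the floor in KO_PBS and Bmf, Engase and Lpin1 in KO_LPS, so the sizes given for those genes depend on the fit's prior count. The calls for Il4i1, Ccr7, Bmf, Lpin1, Zfp395 and Ccl8 were lost when some single libraries were left out. That for Il4i1 was also lost under a replicate block, that for Bmf with DESeq2 and that for Ccl8 with no filter on low counts. Other genes named in the report also passed and are not listed here.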

How the results depend on the processing

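Scaling moved the split between rises and falls. Under library totals alone, 2202 genes were called higher and 8387 lower with LPS, 1371 and 5300 by more than 2-fold, and 627 and 1945 had a more positive and a more negative response in KO. The same scaling reversed the log2 fold change of H2-Eb1 (-0.22), Atp5b (-0.15), Uqcrfs1 (-0.17), Rpl27 (-0.32), Rps24 (-0.33), Irf8 (-0.33), Mertk (-0.80), Ccl6 (-0.59) and Plk1 (-0.64), and upper-quartile scaling that of Mertk (-0.35) and Ccl6 (-0.14). These turns follow from the shift of the median by the scaling.

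Leaving out each library in turn gave 9307 to 9877 genes called, 5014 to 5109 of them more than 2-fold, with 4529 to 4828 called higher, 4757 to 5049 lower, 2342 to 2375 more than 2-fold higher and 2658 to 2734 lower. Differences from WT were less stable, with 1551 (without KO_LPS replicate 1) to 2685 genes called (without WT_LPS replicate 1), 738 (without KO_PBS replicate 2) to 1552 of them positive and 674 to 1133 negative. Ythdf1 stayed between 1.76 and 1.81. The cause was not tested. Of 185 gene responses, 14 changed their call or direction under any alternative, as did 7 of 44 differences from WT. DESeq2 called 9522 genes in KO, no filter 9886 of 16860 tested, a minimum of 10 counts in every library 8264 of 10091, and the KO libraries alone 9530 of 11662.

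A replicate block gave 9631 genes called, 5023 more than 2-fold and 2132 differences from WT. Deviations of same-numbered KO_PBS and KO_LPS libraries correlated at 0.04, 0.14 and 0.11, and those of differently numbered libraries at -0.115 to -0.006. Same-numbered libraries were thus the more alike, but only weakly. The labels do not state a pairing, so none was used in the main fit. With 3 libraries a group and a floor of 3 counts, levels at or under about 0.187 CPM in KO_LPS could not be told from no expression at this depth.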
